A study of Mus musculus with 16 samples.

Results

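Expression of 34 genes that mark the stroma, smooth muscle and pericytes was followed in newborn XX mouse ovaries lacking Runx1, Foxl2 or both. The genes were listed by name, with earlier results of these data known. They were 9 transcription factors of mesenchymal cells, 6 contractile or filament proteins, 8 elastic fibre genes, 3 small leucine-rich proteoglycans, 4 other matrix genes and 4 surface and pericyte genes. Of these, 33 were measured, out of 18193 genes in all. For Fbn1 no probe set was named here. There were 21 genes with more than 1 probe set, for which the brightest on average was used, and 12 with a single probe set.

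Each of the 16 arrays held RNA from 1 ovary, with 4 ovaries per genotype. Control ovaries were Runx1+/f; Foxl2+/+ with no Cre transgene. Runx1 KO ovaries were Runx1-/f; Foxl2+/+ with 1 Sf1-cre transgene, which recombines floxed alleles in the gonad's somatic cells. Foxl2 KO ovaries were Runx1+/f; Foxl2-/- with no Cre, so that both Foxl2 alleles were null in every cell of the animal. DKO ovaries were Runx1-/f; Foxl2-/- with 1 Sf1-Cre transgene. All 4 genotypes carried at least 1 floxed Runx1 allele and came from 1 breeding scheme on mixed backgrounds. Cre was present only where Runx1 was deleted, so Cre and the loss of Runx1 cannot be told apart. The ovaries had been parted from the mesonephros, the neighbouring duct-bearing tissue, before RNA was extracted and amplified.

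The stroma of the fetal ovary is the mesenchyme between and around the germ cells and their supporting pre-granulosa cells. It expresses the nuclear receptors NR2F1 and NR2F2 and the bHLH factor TCF21, and it secretes collagens, proteoglycans and elastic fibre proteins. An elastic fibre is a core of elastin (Eln) on a scaffold of fibrillin microfibrils, with fibulins and microfibril-associated proteins bound to it and with lysyl oxidase (Lox) joining elastin chains. Smooth muscle cells contract through smooth muscle actin (Acta2) and smooth muscle myosin (Myh11), and pericytes, the mural cells of capillaries, carry Rgs5, Cspg4 and Kcnj8. The deleted genes themselves, Runx1 and Foxl2, encode transcription factors found in pre-granulosa cells.

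The values were linear intensities, scaled so that the trimmed mean of every array was 500, and array medians ran from 134 to 177. Foxl2 read 2774 to 4241 in Control ovaries; Foxl2 KO (484 to 890) and DKO (570 to 839) were lower. Runx1 read 2142 to 2359 in Control, 932 to 2127 in Runx1 KO, 2356 to 3054 in Foxl2 KO and 2111 to 2370 in DKO ovaries. Runx1 KO and DKO ovaries shared the Runx1 genotype and Cre and were read on the same probe set, yet only Runx1 KO read below Control. Whether the probes fall inside the floxed stretch is not known here. These values therefore do not show the loss of Runx1 in DKO, which was taken from the labels. The cause was not tested. A pair of ovaries stood apart through genes of other tissues. In Runx1 KO replicate 2 the summed intensity of 11 skeletal muscle genes was 53234, against 1203 to 2793 in the other ovaries, and in Control replicate 4 that of 8 red cell genes was 16758, against 554 to 877. Without Runx1 KO replicate 2 the calls against Control were kept, for Mfap5 in DKO (limma adjusted p = 0.00335) and for Fbln2 in Foxl2 KO (0.0150) and DKO (0.0313). Those comparisons do not include that ovary, so their differences could not change and only the shared estimate of the spread did. The call of Mfap5 in DKO against Runx1 KO, which does include it, was lost. Without Control replicate 4 that of Mfap5 was kept (limma adjusted p = 0.00886), and Fbln2 was not called in Foxl2 KO (0.0623) or DKO (0.119). The labels do not say whether the ovaries of a group came from separate litters, and p-values measure only the spread between these ovaries.

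Most of the 33 genes were present at levels that differed little between genotypes. The 4 group means lay within 0.5 on the log2 scale (of intensity plus 16) for 19 genes, and 3 genes spanned more than 1. Only Mfap5, which fell in DKO ovaries, and Fbln2, which rose in Foxl2 KO and DKO ovaries, were called in any of 6 comparisons (limma, adjusted p below 0.05 over 18193 genes), and 31 were called in none. The median difference of the 33 genes from Control was 0.07 in Runx1 KO, 0.06 in Foxl2 KO and 0.04 in DKO on the log2 scale, and that of all genes was 0.04, 0.05 and 0.04.

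In Runx1 KO against Control, 0 of the 33 were called, where 0.121% of all genes were. In Foxl2 KO, 1 was called, Fbln2, beside 1.52% of all genes. In DKO, 2 were called, Mfap5 and Fbln2, beside 2.13%. At an unadjusted limma p below 0.05 the counts were 1, 6 and 8 of 33 in Runx1 KO, Foxl2 KO and DKO, beside 7.34%, 11.0% and 12.4% of all genes. In 5 genes the 4 Foxl2 KO values all lay beyond the 4 Control values, a pattern found in 6.72% of all genes. They were Myh11, Eln, Fbln2 and Ogn, which were higher, and Rgs5, which was lower. In DKO ovaries this held for 3 genes (7.61% of all genes), Meox2 and Myh11 higher and Mfap5 lower, and in Runx1 KO for 0 (3.97%). The 3 comparisons share the Control ovaries. As this is whole ovary RNA, fewer cells of a type and less RNA per cell cannot be told apart.

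**Figure D1:**
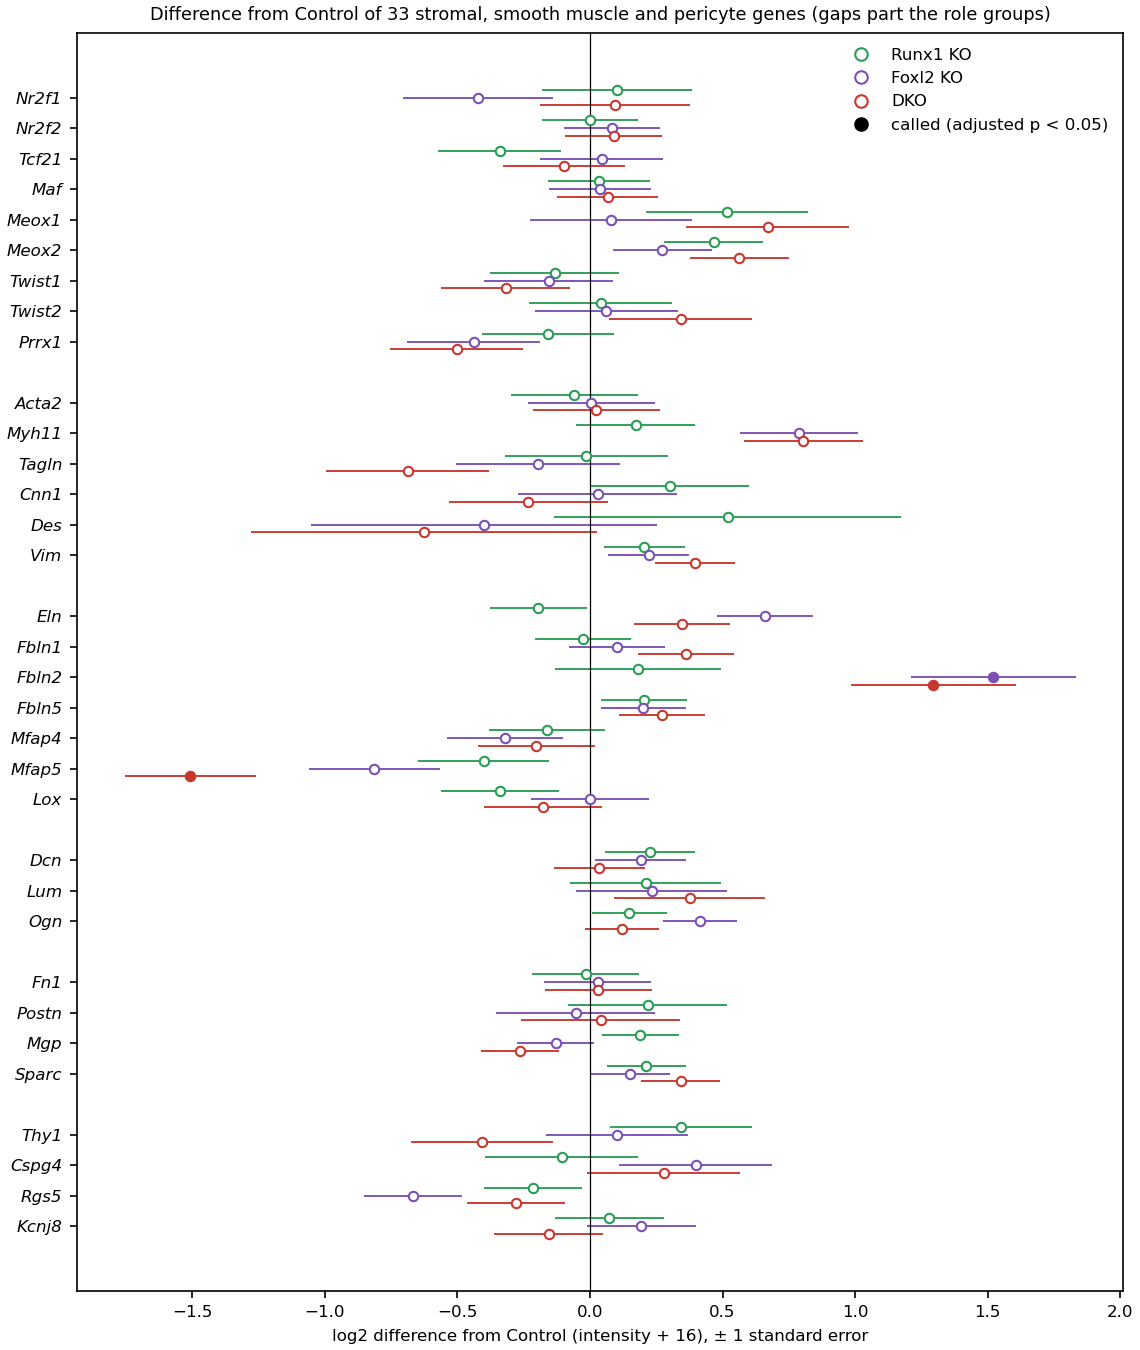
Difference of each of 33 genes from Control on the log2 scale (intensity plus 16), with 1 standard error, for Runx1 KO (green), Foxl2 KO (purple) and DKO (red) ovaries, 4 per genotype. Filled points are called at an adjusted p below 0.05, which holds for Fbln2 in Foxl2 KO and DKO and for Mfap5 in DKO.

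Of the 7 genes named above for values wholly beyond Control, 4 had an upstream sequence in the RefSeq promoter table (build GRCm38.p6). The 250 bases before their start sites are printed 5′ to 3′ on the strand of the gene. Of these 4 only Fbln2 was called, and Mfap5 had no entry. Capitals mark matches to the RUNX core TGTGGT, the forkhead sequence TGTTTAC or the TATA box TATAAA, searched on both strands; a match on the opposite strand appears as its reverse complement. Fbln2, at chr6:91212514-91212763 on the plus strand, and Rgs5, at chr1:169655251-169655500 on the plus strand, hold none of these letters. Ogn, at chr13:49607765-49608014 on the plus strand, holds 1 RUNX core, and its pair of TATA matches overlap. Meox2, at chr12:37108290-37108539 on the plus strand, holds 2 RUNX cores and 1 TATA match.
Fbln2: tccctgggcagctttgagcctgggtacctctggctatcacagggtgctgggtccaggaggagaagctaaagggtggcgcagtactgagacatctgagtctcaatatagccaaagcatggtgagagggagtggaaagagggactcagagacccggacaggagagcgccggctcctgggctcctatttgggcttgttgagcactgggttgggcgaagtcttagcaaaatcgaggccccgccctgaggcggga
Rgs5: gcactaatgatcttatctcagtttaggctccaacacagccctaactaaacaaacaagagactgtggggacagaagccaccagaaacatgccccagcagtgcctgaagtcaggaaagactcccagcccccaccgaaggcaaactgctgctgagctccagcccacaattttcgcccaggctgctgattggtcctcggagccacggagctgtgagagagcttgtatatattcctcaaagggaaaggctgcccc
Ogn: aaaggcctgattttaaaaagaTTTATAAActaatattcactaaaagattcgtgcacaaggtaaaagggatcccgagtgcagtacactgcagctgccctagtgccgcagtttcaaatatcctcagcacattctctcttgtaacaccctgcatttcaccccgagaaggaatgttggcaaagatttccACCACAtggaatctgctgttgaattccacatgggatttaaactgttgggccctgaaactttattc
Meox2: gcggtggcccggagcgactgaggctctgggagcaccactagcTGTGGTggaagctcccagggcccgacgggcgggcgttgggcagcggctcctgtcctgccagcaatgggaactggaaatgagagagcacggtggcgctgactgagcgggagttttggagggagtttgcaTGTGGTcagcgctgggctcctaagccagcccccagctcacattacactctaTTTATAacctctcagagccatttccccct
The RUNX core was present in 14.0% of 32851 mouse promoters of this length, the forkhead sequence in 3.17% and the TATA box in 12.4%. Of the 34 genes, 21 had at least 1 entry, which gave 25 promoters. Of these 25 promoters, 2 held the RUNX core (of Meox2 and Ogn), 1 the forkhead sequence (of Nr2f1) and 5 the TATA box (of Meox2, Ogn, Postn, Twist1 and Vim). A match is a run of letters and not a bound site, and its absence says only that the letters are not in this window.

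Mfap5 encodes a glycoprotein of the microfibril scaffold. Its intensity was 165, 388, 347 and 278 in the 4 Control ovaries and 236, 162, 224 and 223 in Runx1 KO. It was 170, 103, 176 and 179 in Foxl2 KO and 96.9, 63.9, 79.4 and 124 in DKO ovaries. Every DKO ovary was below every Control and every Runx1 KO ovary, while Foxl2 KO overlapped Control only through Control replicate 1. The level in DKO was 2.84-fold lower than in Control (log2 -1.51 ± 0.25 SE, n = 4 and 4, limma adjusted p = 0.00301). It was 2.15-fold lower than in Runx1 KO (log2 -1.11 ± 0.25, limma adjusted p = 0.0462). In Foxl2 KO the difference from Control was -0.81 ± 0.25 (limma adjusted p = 0.163) and in Runx1 KO -0.40 ± 0.25 (limma adjusted p = 0.758), and neither was called.

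A further probe set for Mfap5 read lower than Control in every knockout group too, but placed Foxl2 KO and DKO differently. It gave 141, 310, 380 and 287 in Control and 147, 91.7, 175 and 220.1 in Runx1 KO. It gave 38.2, 48.3, 79.6 and 111 in Foxl2 KO and 113, 63.4, 81.1 and 119 in DKO ovaries. On this probe set all Foxl2 KO and DKO values lay below all Control values. The log2 differences from Control were -1.79 in Foxl2 KO (limma adjusted p = 0.00974 over all probe sets), -1.38 in DKO (0.0426) and -0.74 in Runx1 KO (0.728). The fall of Mfap5 in DKO was therefore called on both probe sets, its fall in Foxl2 KO on 1 of them and on their mean (log2 -1.30, limma adjusted p = 0.0224), and the order of Foxl2 KO and DKO differed between them. The DKO values of 63.9 and 79.4 on the brighter probe set lay below the highest intensity of the Y-linked gene Usp9y, 93.1, a gene that XX ovaries do not carry. Sry, also Y-linked, reached 514, above every Mfap5 value on both probe sets. Leaving out any 1 of the 16 ovaries kept the DKO call, with adjusted p from 0.000585 to 0.0131. The call against Runx1 KO was lost in 12 of those 16 fits (adjusted p up to 0.131; kept only without Control 1, Control 2, Foxl2 KO 2 or DKO 4), and Foxl2 KO against Control gained a call without Control replicate 1 (adjusted p = 0.0312).

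Fbln2 encodes fibulin 2, a matrix glycoprotein that binds elastin and fibrillin. Its intensity was 118, 293, 162 and 121 in Control and 213, 115, 240 and 202 in Runx1 KO ovaries. It was 462, 580.2, 321 and 695 in Foxl2 KO and 529, 264, 525 and 426 in DKO ovaries. All Foxl2 KO ovaries were above all Control and Runx1 KO ovaries, and in DKO only replicate 2 fell below the highest Control. Foxl2 KO exceeded Control 2.87-fold (log2 1.52 ± 0.31 SE, n = 4 and 4, limma adjusted p = 0.0198). DKO exceeded it 2.45-fold (log2 1.29 ± 0.31, limma adjusted p = 0.0419). The difference in Runx1 KO was 0.18 ± 0.31 (limma adjusted p = 0.923). All Control and Runx1 KO values lay below the highest reading of the Y-linked gene Sry, 514, and Foxl2 KO and DKO values lay on both sides of it.

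The size of the Fbln2 difference was similar whichever ovary was left out, between 1.36 and 1.78 in Foxl2 KO and between 1.16 and 1.56 in DKO, but several of these fits lost the call. In Foxl2 KO the call was lost without Control 1 (limma adjusted p = 0.0665), Control 3 (0.0593), Control 4 (0.0623), Foxl2 KO 2 (0.0658) or Foxl2 KO 4 (0.0754). In DKO it was lost in 10 of 16 fits, those without Control 1, 3 or 4, Runx1 KO 1 or 4, Foxl2 KO 1 or 2, or DKO 1, 3 or 4 (adjusted p up to 0.133). A dim probe set of Fbln2, with a mean intensity of 16.5, differed from Control by 0.12 in Foxl2 KO and 0.59 in DKO and was not called. With the mean of both probe sets, Fbln2 was 0.82 higher in Foxl2 KO (limma adjusted p = 0.131) and 0.94 higher in DKO (limma adjusted p = 0.0544), and with only the groups compared in the fit the adjusted p was 0.0657 and 0.0952.

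Eln, the elastin gene, read 1836, 2889, 2562 and 2201 in Control and 3274, 3893, 3022 and 4895 in Foxl2 KO ovaries. It read 2110 in Runx1 KO replicate 1 and 1622, 1978 and 2567 in the others of that group, and 2749, 2774, 3299.7 and 3136 in DKO. All Foxl2 KO values lay above all Control values, and DKO values overlapped the top of the Control range. The log2 difference was 0.66 ± 0.18 in Foxl2 KO (limma adjusted p = 0.102) and 0.35 ± 0.18 in DKO (limma adjusted p = 0.475), so Eln was not called. Its dimmer probe set gave 0.70 and 0.48, likewise not called. In Runx1 KO the difference was -0.19 on the brighter probe set (limma adjusted p = 0.846) and -0.60 on the dimmer (limma adjusted p = 0.698 over all probe sets). Eln was singled out after its values were seen.

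The other elastic fibre genes varied less. Fbln1 and Fbln5, further fibulins, differed from Control by -0.03 to 0.36 and by 0.20 to 0.27 in the 3 knockout groups. Mfap4, another microfibril-associated gene, differed by -0.32 to -0.16, and Lox by -0.34 to 0.00. Of the 7 measured elastic fibre genes, 1 rose and 1 fell in DKO, beside 2.13% of all genes called. In Foxl2 KO 1 rose, beside 1.52%, and Mfap5 was called as lower there on its other probe set. In Runx1 KO 0 were called, beside 0.121%.

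**Figure D2:**
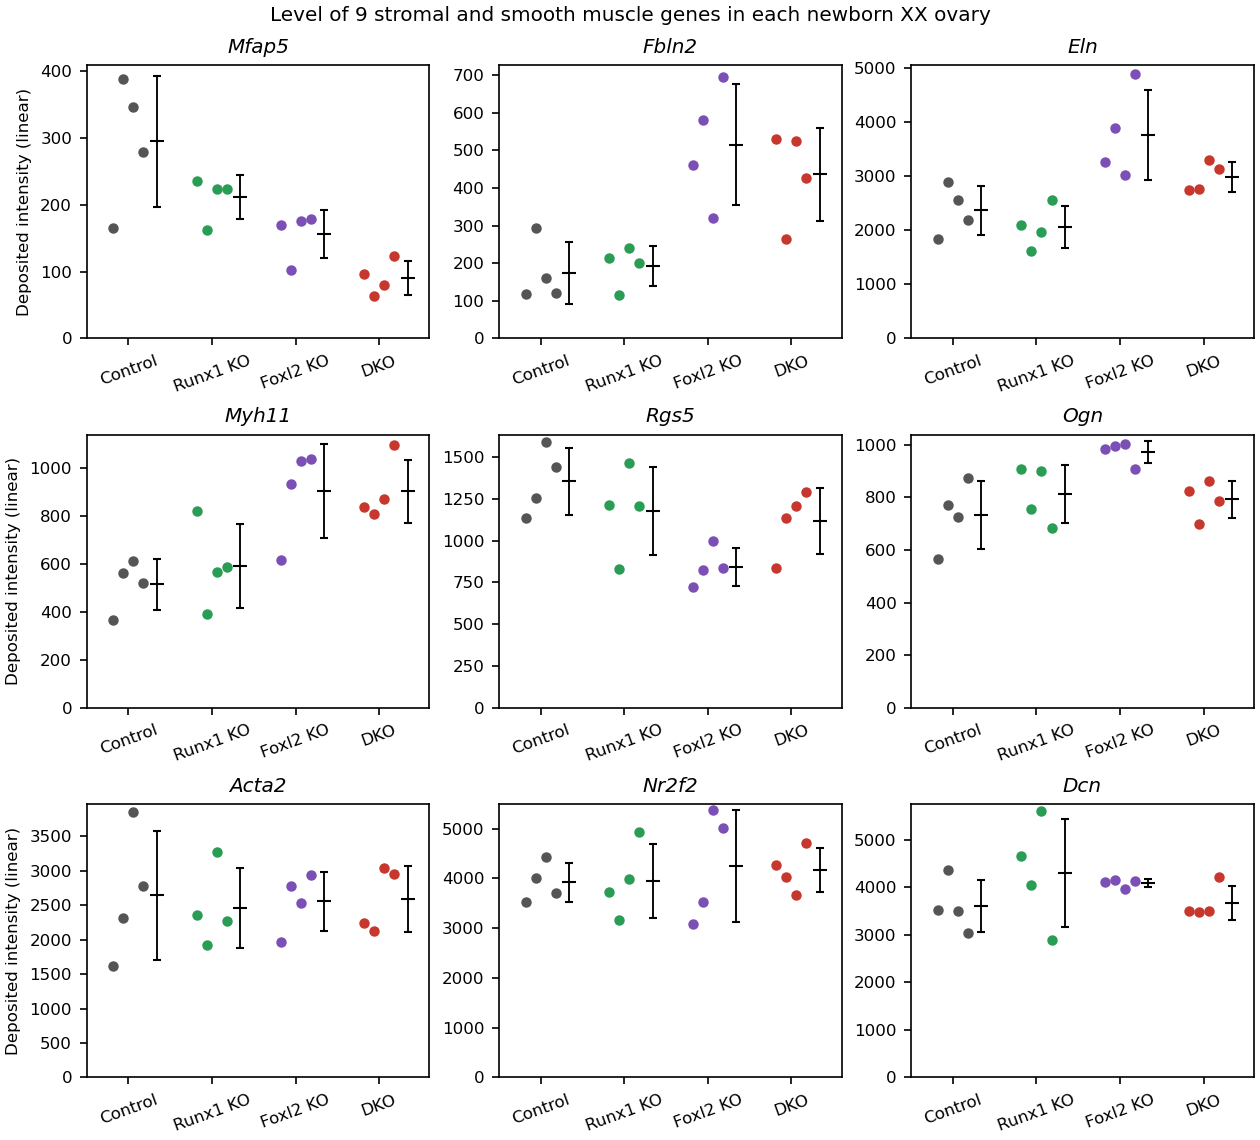
Deposited linear intensity of 9 of the genes in each ovary (coloured points, 4 ovaries in each genotype); black bars give mean and SD. DKO values of Mfap5 (63.9 to 124) lie below every Control ovary, Foxl2 KO values of Fbln2 (321 to 695) above every Control ovary, and Acta2, Nr2f2 and Dcn overlap in all 4 genotypes.

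Among the contractile genes, Myh11 stood at 367, 561, 610.3 and 522 in Control and at 822, 393, 565 and 586 in Runx1 KO ovaries. It stood at 618, 932, 1029.8 and 1038 in Foxl2 KO and at 837, 809.9, 869 and 1096 in DKO ovaries. All Foxl2 KO and DKO values were above the Control values, and Runx1 KO values spanned both ranges. The log2 difference was 0.79 ± 0.22 in Foxl2 KO (1.73-fold, limma adjusted p = 0.116) and 0.80 ± 0.22 in DKO (1.75-fold, limma adjusted p = 0.0838), so neither passed the threshold. With genes below the median level left out, the DKO difference was called (limma adjusted p = 0.0442), and with any 1 ovary left out it was not. A dimmer Myh11 probe set gave 0.34 and 0.35.

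Acta2, the most used marker of smooth muscle, had nearly equal means in the 4 genotypes. It ranged from 1614 to 3854 in Control, 1929 to 3276 in Runx1 KO, 1959.6 to 2942 in Foxl2 KO and 2119.6 to 3043 in DKO ovaries. The 4 ranges overlapped throughout, and the log2 difference was 0.00 in Foxl2 KO (95% interval -0.50 to 0.51) and 0.02 in DKO (-0.49 to 0.53). Tagln, an actin-binding protein of smooth muscle, read 433 to 671 in Control and 199 to 563 in DKO, a difference of -0.69 ± 0.31 that was not called (limma adjusted p = 0.374). Cnn1, the calponin of differentiated smooth muscle, read 10.5 to 60 over all ovaries. Genes of the Y chromosome, which is not present in XX animals, reached 15.2 (Uty), 36.0 (Eif2s3y), 54.8 (Kdm5d), 93.1 (Usp9y) and 514 (Sry) on these arrays. Thy1 (4.10 to 40.2), Meox2 (18.2 to 54), Cnn1 in all ovaries but 1 and Des in all but 2 read below the highest Kdm5d value.

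Vim, the intermediate filament protein of mesenchymal and supporting cells, was among the 8 genes past an unadjusted p of 0.05 in DKO. It ranged from 9722 to 13101 in Control and from 10241 to 17152 in DKO ovaries. The difference was 0.40 ± 0.15 (limma adjusted p = 0.268), and it was called without DKO replicate 3 (limma adjusted p = 0.0436). Under quantile normalization it was 0.10. The ratio of 3′ to 5′ Gapdh probe sets, a measure of RNA integrity and amplification, was 4.21 in DKO replicate 3 and 5.32 to 5.96 in the other DKO ovaries, against 3.39 to 4.69 in Control. It was 4.46 to 5.22 in Runx1 KO and 3.54 to 4.47 in Foxl2 KO. The same ratio for actin probe sets was 0.989 to 1.201 in Control and 0.980 to 1.136 in DKO, so these ranges overlapped. It was 1.037 to 1.046 in Runx1 KO and 1.044 to 1.167 in Foxl2 KO. The part of either ratio in the DKO differences of Vim, Mfap5, Fbln2, Myh11 and Sparc was not tested.

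Des encodes desmin, the muscle intermediate filament protein that is also used to mark pericytes. It read 6.15 to 70.1 in Control, 7.96 to 39.7 in Foxl2 KO and 9.20 to 16.5 in DKO ovaries. In Runx1 KO it read 49.7, 369.6, 11.7 and 9.0. The highest value came from Runx1 KO replicate 2, the ovary with skeletal muscle transcripts: skeletal actin Acta1 read 4814 there and 2.04 to 9.98 in the other ovaries, and embryonic myosin Myh3 read 8922 there and 30.5 to 133 elsewhere. The log2 difference of Des between Runx1 KO and Control was 0.52 ± 0.65 with this ovary and -0.34 without it, and neither was called. The summed level of the 10 skeletal muscle genes other than Des was 52865 in that ovary and 1173 to 2780 in the others.

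**Figure D3:**
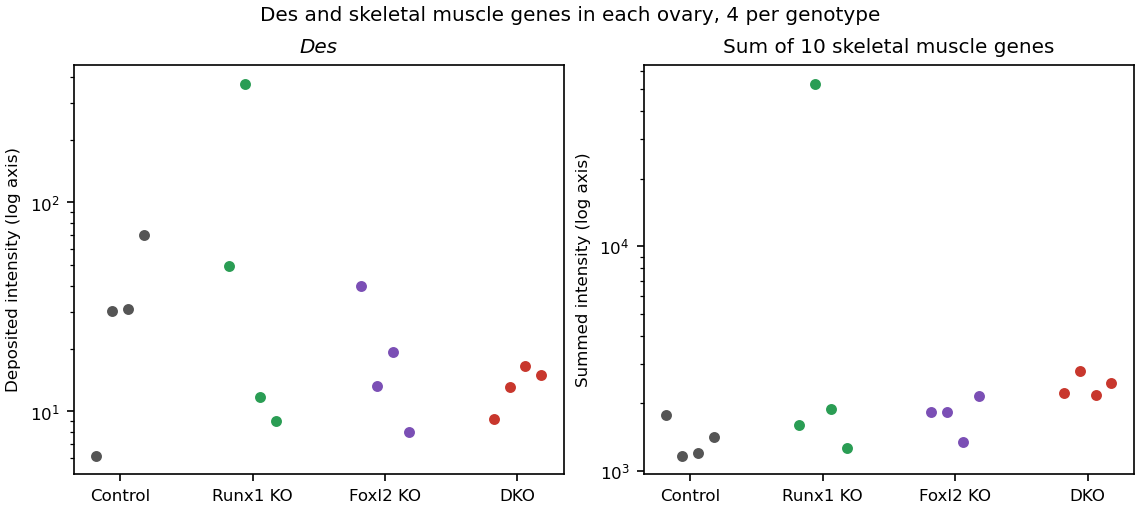
Intensity of Des (left) and summed intensity of 10 skeletal muscle genes (right) in each ovary on log axes, 4 ovaries per genotype. Runx1 KO replicate 2 is the highest point in both panels, at 369.6 for Des and 52865 for the sum.

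Rgs5 is a regulator of G protein signalling and a defining gene of pericytes. Its intensity was 1133, 1255, 1589 and 1437 in Control and 1212, 828, 1466 and 1208 in Runx1 KO ovaries. It was 723, 822, 998 and 838 in Foxl2 KO and 834.5, 1137, 1209 and 1292 in DKO ovaries. All Foxl2 KO values lay below all Control values, whereas DKO values overlapped both groups. The difference from Control was -0.67 ± 0.18 in Foxl2 KO (1.59-fold lower, limma adjusted p = 0.103) and -0.28 ± 0.18 in DKO (limma adjusted p = 0.593), and neither was called. Its 4 probe sets all read lower in Foxl2 KO, by -0.67, -0.49, -0.38 and -0.41.

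The other pericyte genes did not follow Rgs5. Cspg4, the NG2 proteoglycan, differed from Control by -0.11 in Runx1 KO, 0.40 in Foxl2 KO and 0.28 in DKO, and the potassium channel gene Kcnj8 by 0.07, 0.19 and -0.16, each with a standard error of 0.29 and 0.21. The summed level of 12 endothelial genes was 5495 to 8004 in Control, 4862 to 7174 in Runx1 KO, 5311 to 6620 in Foxl2 KO and 5353 to 7084 in DKO, with 0 of the 12 called. In Foxl2 KO 11 of the 12 lay below Control, with a median difference of -0.17 on the log2 scale, as did 7469 of all 18193 genes. The same held for 11 in Runx1 KO (median -0.22, 7958 of all genes) and 8 in DKO (median -0.09, 7772 of all genes). The part of endothelial content in the Rgs5 values was not tested.

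Of the small leucine-rich proteoglycans, which bind collagen fibrils, Ogn (osteoglycin) had the smallest p against Control. It read 565, 771, 726 and 872 in Control and 906, 757, 899 and 682 in Runx1 KO ovaries. It read 982, 996, 1000.3 and 908 in Foxl2 KO and 825, 698, 861 and 786 in DKO ovaries. The Foxl2 KO ovaries were all above the Control ovaries and the DKO ovaries were not. The difference was 0.41 ± 0.14 in Foxl2 KO (limma adjusted p = 0.230) and 0.12 ± 0.14 in DKO (limma adjusted p = 0.798), and the other Ogn probe set gave 0.40 and 0.06. Dcn (decorin) and Lum (lumican) differed from Control by 0.04 to 0.23 and 0.21 to 0.38.

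Of the other matrix genes, Sparc, a collagen-binding secreted protein, had the smallest p against Control. It read 9462, 10067, 12060 and 8339 in Control and 12046, 10450.1, 11645 and 11812 in Runx1 KO ovaries. It read 11067, 9686, 11297 and 12085 in Foxl2 KO and 13532, 12347, 9755 and 15183 in DKO ovaries. DKO replicates 1, 2 and 4 were above all Control ovaries and replicate 3, which was also the lowest DKO ovary for Vim, was not. The DKO difference was 0.34 ± 0.15 (limma adjusted p = 0.348), and 0.07 under quantile normalization. Fn1 (fibronectin) had group means within 0.05 of each other on the log2 scale, the narrowest of the 33 genes. Postn (periostin) differed from Control by -0.05 to 0.22, and Mgp, the matrix Gla protein, by -0.26 in DKO and 0.19 in Runx1 KO. Between DKO and Runx1 KO Mgp differed by -0.45 ± 0.15 (limma adjusted p = 0.223), which was not called.

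Among the transcription factors, Nr2f2 and Maf had nearly equal means in the 4 genotypes. Nr2f2 ranged from 3530.2 to 4421 in Control, 3168 to 4938 in Runx1 KO, 3086 to 5374 in Foxl2 KO and 3673 to 4712 in DKO ovaries. Its difference from Control was 0.00 in Runx1 KO (95% interval -0.39 to 0.39), 0.08 in Foxl2 KO (-0.30 to 0.47) and 0.09 in DKO (-0.30 to 0.48). Maf, a leucine zipper factor of gonadal mesenchyme, differed by 0.04 to 0.07. Tcf21 differed by -0.34 in Runx1 KO (95% interval -0.83 to 0.15) and by 0.04 in Foxl2 KO and -0.10 in DKO, and was not called. Nr2f1 spanned 302 to 323 in Foxl2 KO ovaries, within a Control span of 234 to 564, a difference of -0.42 ± 0.28 that was not called (limma adjusted p = 0.654). Prrx1, a homeobox gene of limb and skin mesenchyme, differed by -0.16, -0.44 and -0.50 in Runx1 KO, Foxl2 KO and DKO (limma adjusted p of 0.913, 0.570 and 0.438).

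Meox2, a homeobox gene of mesoderm and of vessel walls, had the smallest p against Control of the factors. It read 25.6, 33.1, 22.9 and 26.5 in Control and 39.2, 49.1, 54 and 32.9 in Runx1 KO ovaries. It read 18.2, 39.3, 43.8 and 47.6 in Foxl2 KO and 54, 50.3, 35.5 and 51.3 in DKO ovaries. Every DKO value was above every Control value, at intensities that Y-linked genes also reached. The DKO difference was 0.56 ± 0.19 (limma adjusted p = 0.168) and that in Runx1 KO 0.47 ± 0.19 (limma adjusted p = 0.597). Its other probe set, with a mean intensity of 33.8, gave 0.16 in DKO and 0.03 in Runx1 KO and was not called. Its relative Meox1 differed by 0.67 ± 0.31 in DKO and 0.52 ± 0.31 in Runx1 KO (limma adjusted p of 0.386 and 0.748). Twist1 and Twist2, bHLH factors of mesenchyme, differed by -0.32 to -0.13 and by 0.04 to 0.34.

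Loss of Runx1 on top of Foxl2 was addressed by comparing DKO with Foxl2 KO ovaries. Here and for the interaction, the loss of Runx1 in DKO was taken from the labels, since Runx1 read at the Control level there. None of the 33 genes was called (limma), where 0.0605% of all genes were, and 1 gene had an unadjusted p below 0.05 (5.38% of all genes). This was Mfap5, at -0.69 ± 0.25 (limma adjusted p = 0.698), and its other probe set gave the opposite sign, 0.42 ± 0.32. For Fbln2 the difference was -0.23 (95% interval -0.89 to 0.44), and for Myh11 it was 0.02 (-0.46 to 0.49).

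In DKO against Runx1 KO ovaries, which both carried Cre, Mfap5 alone was called (0.989% of all genes). At an unadjusted p below 0.05 there were 8 genes (9.43% of all genes): Mfap5, Tagln, Mgp and Thy1 lower, and Fbln2, Myh11, Eln and Fbln1 higher. Thy1 read at intensities that Y-linked genes also reached. Fbln2 was 2.16-fold higher (log2 1.11 ± 0.31, limma adjusted p = 0.133), Myh11 1.55-fold higher (adjusted p = 0.305) and Eln 1.46-fold higher (adjusted p = 0.261). The dimmer Eln probe set gave a log2 difference of 1.08 (limma adjusted p = 0.0651 over all probe sets), not called either.

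The interaction, which asks whether Runx1 loss acted differently with and without Foxl2, was called for none of the 33 (0.0110% of all genes, limma). At an unadjusted p below 0.05 there were 3 (5.33% of all genes): Rgs5 at 0.60 ± 0.26, Ogn at -0.44 ± 0.20 and Thy1 at -0.85 ± 0.38, with limma adjusted p of 0.908, 0.910 and 0.910. Thy1 read 4.10 to 40.2 over all ovaries, below the highest value of the Y-linked gene Kdm5d, 54.8. For Rgs5 and Ogn the DKO mean lay closer to Control than the Foxl2 KO mean did, and the difference between DKO and Foxl2 KO was itself not called for either (limma adjusted p of 0.931 and 0.936).

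In some ovaries most of the 33 genes deviated to the same side of their group mean. In Control replicate 1, 32 of 33 lay below the mean of the 4 Control ovaries, with a median deviation of -0.38 on the log2 scale, while 49.0% of all genes did. In Runx1 KO replicate 2, 29 of 33 lay below their group mean, with a median of -0.34, beside 56.6% of all genes. Control replicates 2 and 3 had 27 and 28 of 33 above the mean, and DKO replicate 4 had 26. In other ovaries the split was near even, with 18 of 33 above in Runx1 KO replicate 4, 17 in Foxl2 KO replicate 4 and DKO replicate 1, and 16 in DKO replicate 3. These counts describe each ovary against its own group, and genes of an ovary share its RNA.

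The median SD of the 33 genes within a group was 0.31 in Control, 0.35 in Runx1 KO, 0.31 in Foxl2 KO and 0.26 in DKO ovaries, and that over all genes was 0.27, 0.26, 0.25 and 0.25. The summed level of 12 oocyte genes was 42721 in Control replicate 1 and 26393 to 36631 in the other Control ovaries, and 49408 in Runx1 KO replicate 2 and 34502 to 49727 in its group. The part of germ cell content in the spread was not tested. Leaving out Control replicate 1 lowered the log2 difference of Fbln2 in Foxl2 KO from 1.52 to 1.38 and changed that of Mfap5 in DKO from -1.51 to -1.75.

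**Figure D4:**
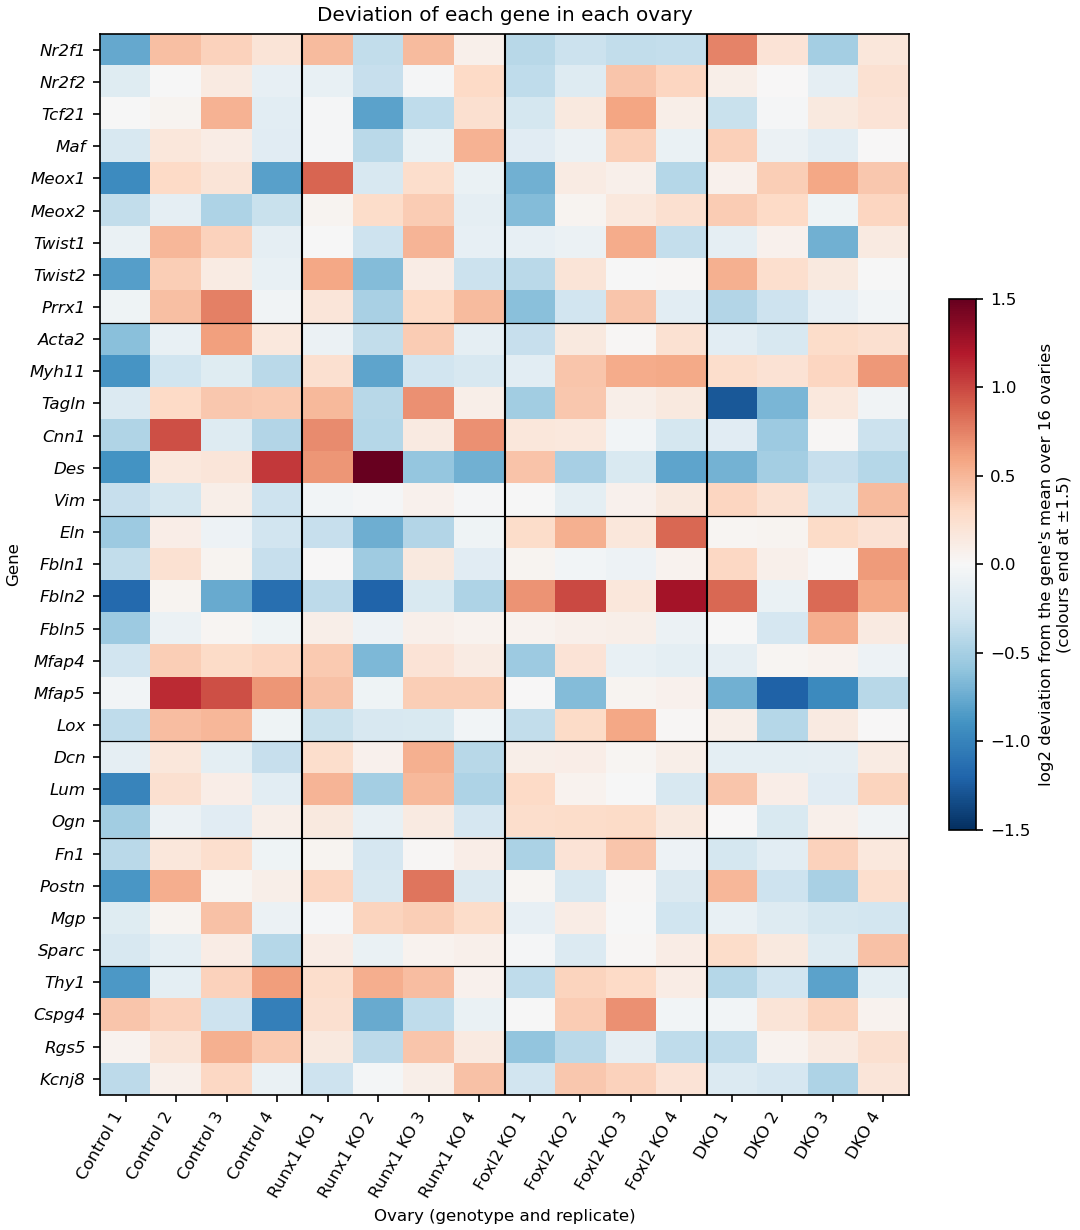
Deviation of each of 33 genes (rows, in role groups parted by lines) in each of 16 ovaries (columns) from that gene's mean over all ovaries, on the log2 scale. The column of Control 1 is mostly blue (31 of 33 genes below their mean over all ovaries), and the rows of Fbln2 and Mfap5 change colour between genotypes.

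Related genes were taken from 3 wider lists. Of 22 further smooth muscle and pericyte genes, 1 was called in Foxl2 KO and in DKO, beside 1.52% and 2.13% of all genes. This was Anpep, the aminopeptidase of pericytes and other mesenchymal cells. It read 455 to 964 in Control, 1215 to 1543 in Foxl2 KO and 1079.6 to 1407 in DKO ovaries, a rise of 1.06 ± 0.20 (limma adjusted p = 0.0125) and 0.88 ± 0.20 (limma adjusted p = 0.0339) on the log2 scale. Its 4 knockout values lay above all Control values in both groups, and it was also higher in DKO than in Runx1 KO (log2 1.25 ± 0.20, limma adjusted p = 0.00552).

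Of 24 further matrix genes, 1 rose and 2 fell in Foxl2 KO, beside 1.52% of all genes called. Prelp, another small leucine-rich proteoglycan, rose 2.66-fold (172 to 306 in Control, 473 to 842 in Foxl2 KO, limma adjusted p = 0.00320). Fbn2, the fibrillin of developing microfibrils, fell 2.14-fold (3503 to 4152 against 1141 to 2068, limma adjusted p = 0.00465), and Tnc, tenascin C, fell 2.42-fold (844 to 1557 against 318 to 616, limma adjusted p = 0.0400). Prelp, Fbn2 and Tnc read 273 to 404, 2104 to 3358 and 403 to 913 in DKO, where every Fbn2 value also lay below Control. They read 162 to 276, 3458 to 4402 and 413 to 843 in Runx1 KO, where every Tnc value lay below Control, if narrowly (843 against 844). None of these was called. In DKO 1 was called, beside 2.13% of all genes: Fmod (fibromodulin) rose 1.92-fold (213 to 453 against 469 to 623, limma adjusted p = 0.0451), with ranges that did not overlap. Of 13 further stromal transcription factors and signals, 0 were called, and in Runx1 KO 0 of the 3 lists' genes were, beside 0.121% of all genes. The median difference over the lists ran from -0.08 to 0.25, beside 0.04 to 0.05 over all genes.

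Some markers of other cell types also differed from Control. With all ovaries in the fit, none of the endothelial, red cell, macrophage, oocyte, surface epithelium, skeletal muscle or liver genes was called. Of 8 bone and cartilage genes 1 was called, Alpl, higher in DKO (limma adjusted p = 0.0495), beside 2.13% of all genes. The summed level of 12 pre-granulosa genes, the deleted Foxl2 among them, was 15135 to 21813 in Control, 11408 to 15571 in Foxl2 KO and 13232 to 14375 in DKO ovaries. Without Foxl2 the sums were 12360 to 17572, 10518 to 14709 and 12393 to 13805. Besides Foxl2, 3 were called lower in Foxl2 KO (Nr5a2, Esr2 and Kitl), where 1.52% of all genes were called. In DKO 4 were (the same with Fst), beside 2.13%. None of the 12 was called higher. However, 5 lay above Control in Foxl2 KO and 6 in DKO, 2 and 3 of them at an unadjusted limma p below 0.05. The median log2 difference of the 12 was -0.35 in Foxl2 KO and -0.07 in DKO. Of 8 genes of the mesonephric ducts, Pax8 rose by 1.74 ± 0.35 on the log2 scale in Foxl2 KO (limma adjusted p = 0.0184) and by 2.23 ± 0.35 in DKO (limma adjusted p = 0.00213), and the others were not called, while the sum of the 8 was 4223 to 5402 in Control, 4528 to 5572 in Foxl2 KO and 4696 to 5457 in DKO. Of 6 genes of steroid-producing cells, Hsd3b1, a steroid dehydrogenase, fell in all 3 knockout groups, with log2 differences of -1.53 in Runx1 KO, -1.86 in Foxl2 KO and -2.19 in DKO (limma adjusted p of 0.00382, 0.000131 and 1.71e-05), and the others were not called. The sum of the 6 was 3143 to 4184 in Control, 1591 to 1867 in Runx1 KO, 1369 to 1954 in Foxl2 KO and 1197 to 1603 in DKO ovaries. Hsd3b1 alone read 2347 to 3217 in Control and 402 to 769 in DKO, so the sum largely repeats this gene. The median log2 difference of the 6 was -0.24 in Runx1 KO, 0.06 in Foxl2 KO and -0.05 in DKO, with 2, 4 and 2 of them above Control. Of 10 immediate early and stress genes 0 were called, with sums of 10317 to 12760 in Control, 8590 to 10131 in Foxl2 KO and 8186 to 11888 in DKO, and 8 of the 10 lay below Control in Foxl2 KO, 4 of them at an unadjusted limma p below 0.05. The part of these in the differences of Mfap5, Fbln2, Eln and Myh11 was not tested.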

How the data were processed

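RNA of single newborn XX ovaries was amplified and hybridised by the authors to Affymetrix mouse arrays. The deposited values are linear intensities per probe set, processed with Affymetrix Expression Console 1.2 per the labels. The study's own test used RMA-normalized log2 values per its methods. The deposited values instead were linear, with a mean of 500 on each array after trimming 2% at each end, so the table used here is not stated to be the RMA one, and how it was summarised is not given in the sources used here. Log2 values were assumed in the design. Since the values were linear, log2(intensity + 16) was taken.

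Of 45101 probe sets, 64 were controls, 34945 had 1 gene, 932 several and 9160 none in the platform annotation. The probe set brightest by mean log2 value was kept for each gene. All 16 arrays entered 1 model with a mean for each of 4 groups, fitted with limma 3.58.1 in R 4.3.3 (lmFit, eBayes; 12 residual degrees of freedom), with two-sided tests and Benjamini-Hochberg adjustment over 18193 genes in each of 6 contrasts. Errors are moderated standard errors. The method was tested on simulated data. Precision is limited by the number of arrays. Lists were read by count and median.

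Per-ovary values are given for called genes and for the gene with the smallest p in each role group; Eln, Vim, Des, Acta2, Tagln, Nr2f1 and Nr2f2 were described after their values were seen. The members and lists were chosen with earlier results of these data known. Alternatives were offsets of 1 and 50, quantile normalization, arrays set to equal medians, the average over a gene's probe sets, genes above the median level, a block for the replicate number, a fit on only the groups compared, the methods' analysis of variance, each array left out and, chosen after seeing the data, every probe set on its own. The replicate numbers were not treated as pairs in the main fit: of 24 same-numbered pairs, 1 had a residual correlation above 0.1 (median -0.0318). The labels do not say whether same-numbered ovaries were littermates or were processed together.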

Additional observations from a re-analysis of the deposited data

Results flagged for a closer look

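Of 132 sets of 4 ovaries (33 genes in 4 genotypes), 6 held an ovary whose gap to the nearest other ovary, divided by the range of the set, passed Dixon's 95% critical value. Chance gives about 1 in 20. Control replicate 1 was low for Tagln (433, the others 623 to 671) and for Mfap4 (2605, the others 3869.6 to 4094). Mfap5 was low in Runx1 KO replicate 2 (162, the others 223 to 236) and in Foxl2 KO replicate 2 (103, the others 169.8 to 179). Maf was high in Foxl2 KO replicate 3 (4309, the others 2999 to 3169), and Dcn was high in DKO replicate 4 (4213, the others 3486 to 3512). None of these ovaries decided the call of Mfap5 in DKO. The causes were not tested.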

How the results depend on the processing

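The fall of Mfap5 in DKO against Control was called with each array left out and under every alternative but the fit on genes above the median level, where Mfap5 was not tested, and Fbln2 and Myh11 were the 2 calls. The other calls were less stable. In Foxl2 KO against Control, where Fbln2 alone was called, 0 genes were called with the replicate number as a block or with only the groups compared, 2 with every probe set on its own, and 5 by the methods' analysis of variance (Eln, Fbln2, Mfap5, Myh11 and Rgs5, with no adjustment over genes); with each array left out 0 to 1 were called. In DKO against Control, the count of 2 became 1, Mfap5, with an offset of 1, the mean of all probe sets, the block or only the groups compared, and ran from 1 to 2 with each array left out. In DKO against Runx1 KO, the 1 call, Mfap5, became 0 with an offset of 1, the mean of all probe sets, genes above the median level, the block, only the groups compared or every probe set on its own, and 4 by the methods' analysis (Fbln2, Mfap5, Myh11 and Thy1), with 0 to 1 when arrays were left out. The methods' analysis called 1 gene in DKO against Foxl2 KO (Mfap5) and 1 in the interaction (Rgs5), where limma called 0. With the mean of all probe sets, Mfap5 in Foxl2 KO was -1.30 (limma adjusted p = 0.0224), and Fbln2 was 0.82 in Foxl2 KO (0.131) and 0.94 in DKO (0.0544), the last not called. Differences that were not called could change sign, as did those of Mfap5 in DKO against Foxl2 KO, from -0.69 to 0.42 on its other probe set, and of Des in Runx1 KO against Control, from 0.52 to -0.34 without Runx1 KO replicate 2. The interaction was not fitted with only the groups compared, as it needs all 4. Over all genes the counts ran from 6 to 510 in Runx1 KO, 175 to 914 in Foxl2 KO, 272 to 1087 in DKO, 4 to 402 in DKO against Foxl2 KO, 104 to 752 in DKO against Runx1 KO and 0 to 572 for the interaction, the highest in each by the methods' analysis. The causes of these shifts were not tested.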

Other observations

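Myh8, the perinatal skeletal myosin heavy chain, was among the 11 skeletal muscle genes used to examine Runx1 KO replicate 2, where it read 11497. Outside that ovary it read 57.2 to 106 in Control, 156 to 247 in the other 3 Runx1 KO ovaries, 170.3 to 552 in Foxl2 KO and 772 to 1044 in DKO ovaries, so that each group lay above the Control range and DKO above all others. With all ovaries, the log2 difference from Control was 1.95 in Foxl2 KO (limma adjusted p = 0.474) and 3.29 in DKO (limma adjusted p = 0.0961). Without Runx1 KO replicate 2 these differences were called (limma adjusted p = 0.00146 and 1.01e-05), and that in the 3 remaining Runx1 KO ovaries was 1.21 (0.236). Skeletal actin Acta1 read 2.04 to 9.98 in every ovary other than Runx1 KO replicate 2. The fit without that ovary was chosen for Myh8 after its values were seen.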
